A study of Mus musculus with 4 samples.

Results

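The measurements concern 9 secreted regulators of blood vessel growth in single-cell RNA sequencing of mouse mesenchymal progenitor cells (MPC). The genes are Vegfa, Vegfb, Vegfc, Angpt1, Angptl4, Thbs1, Thbs2, Adm and Sema3c, chosen by name out of the 32285 genes in the feature table, and all 9 had counts in every library. The cells are C3H10T1/2 (Clone 8), a cloned mouse embryonic line that can form fat, muscle, bone and cartilage cells. All cells carried a lentiviral transgene for a tagged human histone H3.1 under the EF1 promoter, kept under puromycin in the presence of the cells' own histone H3. In H3WT cells the transgene was unmutated, and in H3R26C cells arginine 26 of the transgene was replaced by cysteine. Each line received 5-Azacytidine (5-Aza), a DNA methyltransferase inhibitor that sets off differentiation in these cells, or its vehicle DMSO. In the study's protocol the 5-Aza treatment was brief, and weeks of culture with changes of medium followed before collection. Levels given below as with 5-Aza are thus those of cells collected long after the drug was added. The culture time of the DMSO cells is not given in the sources used here. There were 4 libraries, 1 for each combination of line and treatment, so differences between libraries have no replicate check, and the intervals below cover counting error only.

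Vascular endothelial growth factors are secreted dimers that bind receptor tyrosine kinases on endothelial cells. Vegfa drives sprouting and permeability and is a standard hypoxia-induced gene, Vegfb binds Flt1 and is abundant in tissues that burn fat, and Vegfc acts on lymphatic endothelium through Flt4. Angpt1 is the ligand of Tek (Tie2) that steadies vessel walls, whereas Thbs1 and Thbs2 are matricellular proteins that restrain vessel growth through Cd36 and Cd47. Mesenchymal stromal cells are a usual source of such factors, while the receptors lie mostly on endothelial cells. The question set by the study's description of these lines was whether the mutant histone alters developmental programs, among them genes filed under vascular development.

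All 9 genes are protein-coding in GENCODE M21 on GRCm38. Vegfa (chr17:46016993-46032369), Thbs2 (chr17:14665500-14694235) and Angptl4 (chr17:33773750-33781830) lie on the minus strand of chromosome 17. Vegfb (chr19:6982473-6987651) and Angpt1 (chr15:42424723-42676977) are also on the minus strand. Vegfc (chr8:54077606-54187096), Thbs1 (chr2:118111876-118127133), Adm (chr7:110627661-110629820) and Sema3c (chr5:17574281-17730268) are on the plus strand. 5-Aza acts on DNA methylation, which in mammals is laid mainly on CpG dinucleotides. The 250 bases before the RefSeq start (GRCm38.p6) are therefore shown for 4 of the genes, with each CpG in capitals. Vegfc, Thbs2 and Adm were each higher with 5-Aza in both lines and highest in H3R26C 5-Aza. Vegfb was lower with 5-Aza in both lines and lowest in H3R26C 5-Aza.
Vegfc, chr8:54077282-54077531, plus strand: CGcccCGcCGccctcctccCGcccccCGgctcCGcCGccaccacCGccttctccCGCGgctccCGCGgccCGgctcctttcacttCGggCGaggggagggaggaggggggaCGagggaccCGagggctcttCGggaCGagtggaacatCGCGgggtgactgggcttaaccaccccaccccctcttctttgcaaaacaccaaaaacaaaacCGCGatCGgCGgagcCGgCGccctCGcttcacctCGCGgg
Vegfb, chr19:6987652-6987901, minus strand: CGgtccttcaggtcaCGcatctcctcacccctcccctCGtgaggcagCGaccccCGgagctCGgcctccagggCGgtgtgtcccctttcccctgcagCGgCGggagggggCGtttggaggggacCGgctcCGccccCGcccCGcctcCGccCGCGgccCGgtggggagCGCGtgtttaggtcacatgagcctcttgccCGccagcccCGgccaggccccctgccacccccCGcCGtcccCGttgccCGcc
Adm, chr7:110627407-110627656, plus strand: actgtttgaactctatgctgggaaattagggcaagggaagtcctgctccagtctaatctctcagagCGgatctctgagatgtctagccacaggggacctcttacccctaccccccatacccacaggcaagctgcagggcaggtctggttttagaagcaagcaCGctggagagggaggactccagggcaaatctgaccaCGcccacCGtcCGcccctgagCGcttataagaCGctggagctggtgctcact
Thbs2, chr17:14694263-14694512, minus strand: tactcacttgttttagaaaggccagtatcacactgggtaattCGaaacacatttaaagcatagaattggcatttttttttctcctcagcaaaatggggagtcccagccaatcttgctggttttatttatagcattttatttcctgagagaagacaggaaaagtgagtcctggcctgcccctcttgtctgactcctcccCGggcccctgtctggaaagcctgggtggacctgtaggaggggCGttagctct
The Vegfc window held 30 CpG, a number reached by 5.94% of the 32851 promoter windows of that length, and the Vegfb window held 26. The Adm window held 7 and the Thbs2 window 3, against a median of 6.0 over all windows. The hypoxia response core was searched as ACGTG or GCGTG on both strands, 2 motifs that differ in their first base and whose matches may overlap, and 38.6% of all windows held at least 1 of them. GCGTG was found 2 times in the Adm window and 2 times in the Vegfb window, and neither motif was found in the Vegfc or Thbs2 windows. Sema3c, also higher with 5-Aza in both lines, and Vegfa had windows that are not printed. The Sema3c window lay inside the GENCODE gene and held 39 CpG, a number reached by 1.56% of all windows. It held 1 ACGTG and 1 GCGTG. For Vegfa, the window before the gene held 11 CpG and neither motif. A Vegfa window inside the gene held 7 CpG, 1 ACGTG and 1 GCGTG. Promoter methylation was not analysed here.

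Cells were kept at a minimum of 5000 UMIs (unique molecular identifiers, each standing for 1 captured transcript) and 1500 genes and a maximum of 20% mitochondrial UMIs. This left 22049 of 39891 barcodes, with 3710 cells for H3WT DMSO, 4727 for H3R26C DMSO, 5993 for H3WT 5-Aza and 7619 for H3R26C 5-Aza. Summed UMIs ran from 84060490 to 110712425 per library, and the median per cell was 22420, 16598, 13149 and 13123 UMIs in the same order. Expression of 6 progenitor markers (among them Pdgfra, Prrx1 and Col1a1) summed to 6727 to 7357 CPM in each library, where CPM is a gene's UMIs scaled to 1000000 UMIs of its library. Most of that sum was collagen, with Col1a1 at 3090.2 and Col1a2 at 2705 of 7316 CPM in H3WT DMSO. Other markers of the list differed between libraries. In the same order as above, Ly6a was at 578, 667, 1034 and 1582 CPM and Thy1 at 110, 37.6, 123 and 50.5 CPM. Endothelial markers were low, with 8 markers summing to 4.87, 5.58, 7.37 and 11.2 CPM, Cldn5 without a single UMI and Tie1 at 0.0119 CPM at most. Within that sum Cdh5, the junction protein VE-cadherin, was at 0.0230, 0.0238, 1.23 and 5.39 CPM and Emcn, an endothelial surface mucin, at 0, 0.0119, 1.07 and 2.37 CPM, so both were higher with 5-Aza and highest in H3R26C 5-Aza. Tek, the largest part of the sum with DMSO, went the other way. It was at 4.37, 4.996, 4.15 and 1.24 CPM, lowest in H3R26C 5-Aza. The part of such transcripts in the values of the 9 genes was not tested. Among the kept cells, 488 carried a barcode that was also found in another library, and the genes past 2-fold were the same without them.

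Over all kept cells, Angptl4, Thbs2, Adm, Angpt1 and Vegfc were higher in H3R26C than in H3WT under both treatments by 1.27-fold or more, although with DMSO this did not hold for Adm and Angpt1 in the cells with both Ly6a and Spp1, and every gene but Vegfb was higher with 5-Aza than with DMSO in both lines. The mutant line with 5-Aza had the highest level of 7 of the 9 genes, the exceptions being Vegfb, which was lowest there, and Sema3c. Among the genes that averaged at least 1 CPM in the comparison, only Angptl4 was past 2-fold between the lines with DMSO. Vegfc, at 8.27-fold with DMSO (4.12 to 18.8), averaged less than 1 CPM and was not counted there. With 5-Aza, Vegfc and Angptl4 were past 2-fold between the lines. The plot of levels by library shows all 9 genes.

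**Figure D1:**
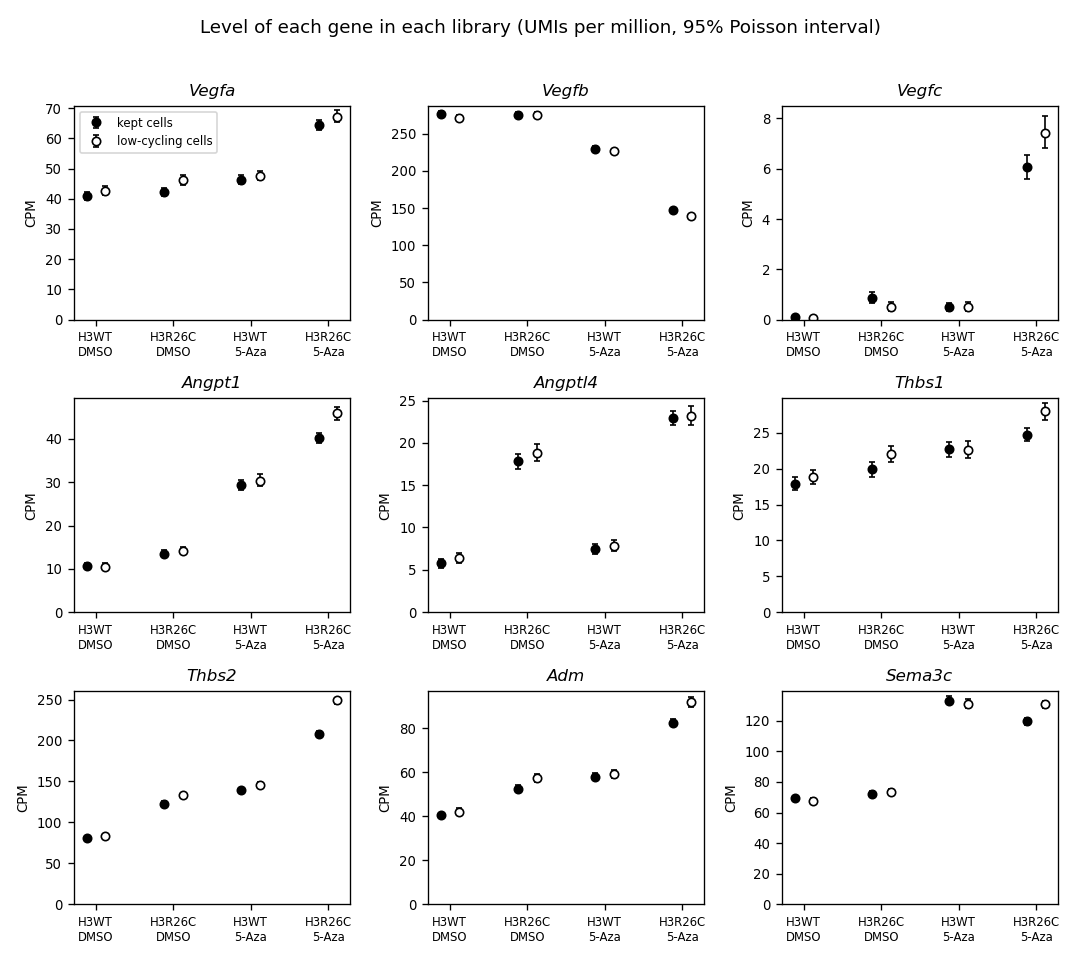
Level of each of the 9 genes (CPM, y axis from 0) in the 4 libraries (x axis), in all kept cells (filled) and in cells with at most 1 UMI over 5 cell cycle genes (open). Bars are 95% Poisson intervals, and H3R26C with 5-Aza is the highest library for 7 genes and the lowest for Vegfb.

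Vegfa, the main angiogenic ligand, was at 41.0 CPM in H3WT DMSO, 42.2 in H3R26C DMSO, 46.2 in H3WT 5-Aza and 64.4 in H3R26C 5-Aza. Over all kept cells the DMSO libraries did not differ beyond counting error, with a ratio of 1.03 (95% counting interval 0.983 to 1.08). With 5-Aza the mutant line was 1.39-fold higher (1.34 to 1.45), and 5-Aza against DMSO was 1.13-fold in H3WT (1.08 to 1.18) and 1.53-fold in H3R26C (1.47 to 1.59). Over all kept cells Vegfa therefore stood apart in a single library, H3R26C 5-Aza, and none of its ratios reached 2-fold. With DMSO its ratio of H3R26C to H3WT was 1.08 (1.03 to 1.14) in the low-cycling cells described below. In the cycling cells it was 0.848 (0.737 to 0.977).

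Vegfb, the ligand of Flt1 linked to fat-burning tissue, ran the other way. Its level was 277 CPM in H3WT DMSO, 275 in H3R26C DMSO, 229.8 in H3WT 5-Aza and 147 in H3R26C 5-Aza. The DMSO pair again did not differ beyond counting error, at a ratio of 0.996 (0.978 to 1.01). With 5-Aza the level was 0.831 of the DMSO level in H3WT (0.815 to 0.847) and 0.535 in H3R26C (0.525 to 0.546), which left H3WT 1.56-fold above H3R26C after 5-Aza (1.53 to 1.59). Vegfb was the only one of the 9 genes that was lower with 5-Aza in both lines.

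Vegfc, the lymphatic ligand, was scarce in 3 libraries and had most of its counts in the last. It gave 9 UMIs in H3WT DMSO (0.104 CPM), 72 in H3R26C DMSO (0.857 CPM), 42 in H3WT 5-Aza (0.498 CPM) and 670 in H3R26C 5-Aza (6.05 CPM). H3R26C was 12.2-fold above H3WT with 5-Aza (8.89 to 17.02) and 8.27-fold above it with DMSO, where the 9 UMIs leave an interval of 4.12 to 18.8. In H3R26C, 5-Aza against DMSO was 7.07-fold (5.53 to 9.14), a ratio that ran from 1.60 in cycling cells to 14.4 in low-cycling cells, as described with those cells. In H3WT, 5-Aza against DMSO was 4.81-fold (2.31 to 11.2), which rests on the same 9 UMIs. The mean of Vegfc was below 1 CPM in the DMSO comparison and in the H3WT comparison, so it was not among the genes counted as past 2-fold there.

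Angpt1, the Tek ligand, followed the treatment more than the histone. It stood at 10.6 CPM in H3WT DMSO, 13.5 in H3R26C DMSO, 29.4 in H3WT 5-Aza and 40.3 in H3R26C 5-Aza. Both 5-Aza libraries were above both DMSO libraries, 2.78-fold in H3WT (2.57 to 2.998) and 2.99-fold in H3R26C (2.80 to 3.20). Between lines the ratio was 1.27 with DMSO (1.16 to 1.39) and 1.37 with 5-Aza (1.31 to 1.44).

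Angptl4 encodes a secreted inhibitor of lipoprotein lipase that is induced by fatty acid sensing receptors and by hypoxia and also acts on endothelium, and it followed the histone more than the treatment. Its levels were 5.76 CPM in H3WT DMSO, 17.8 in H3R26C DMSO, 7.42 in H3WT 5-Aza and 22.9 in H3R26C 5-Aza. Both mutant libraries were above both H3WT libraries, at 3.09-fold with DMSO (2.79 to 3.43) and 3.09-fold with 5-Aza (2.83 to 3.38). The treatment ratio was 1.29 in each line, with intervals of 1.14 to 1.45 in H3WT and 1.21 to 1.38 in H3R26C.

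Among the inhibitors, Thbs2 was the more variable between libraries. Thbs2 was at 81.4 CPM in H3WT DMSO, 123 in H3R26C DMSO, 139.8 in H3WT 5-Aza and 208 in H3R26C 5-Aza. The mutant line was 1.51-fold higher with DMSO (1.47 to 1.56) and 1.49-fold higher with 5-Aza (1.45 to 1.52), and the treatment ratios were 1.72 in H3WT and 1.69 in H3R26C (intervals 1.67 to 1.77 and 1.65 to 1.72). These ratios depended on the depth of the cells, and at 20000 to 40000 UMIs per cell the line ratio with 5-Aza and the treatment ratio in H3R26C were 1.10 each. Thbs1, its relative and an activator of latent TGF-beta, moved in a narrow range of 17.8, 19.9, 22.7 and 24.7 CPM in the same order of libraries. Its ratio between lines was 1.11 with DMSO (1.04 to 1.19) and 1.09 with 5-Aza (1.03 to 1.16), values that are taken up again with the muscle markers. In H3R26C DMSO a single cell held 130 of the 1671 Thbs1 UMIs.

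Adm, which encodes the vasodilator peptide adrenomedullin, had a profile like that of Thbs2. It measured 40.4 CPM in H3WT DMSO, 52.4 in H3R26C DMSO, 57.9 in H3WT 5-Aza and 82.5 in H3R26C 5-Aza, with ratios between lines of 1.30 (1.24 to 1.36) and 1.43 (1.38 to 1.48). Sema3c, a secreted semaphorin that guides axons and vessels through neuropilins and plexins, was at 69.2, 71.9, 133 and 119.5 CPM. Sema3c thus separated the treatments, at 1.93-fold in H3WT (1.87 to 1.99) and 1.66-fold in H3R26C (1.61 to 1.71), and was slightly lower in the mutant line with 5-Aza at a ratio of 0.897 (0.874 to 0.920).

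A gene was counted as past 2-fold when log2(CPM + 1) differed by at least 1 between the libraries and their mean was at least 1 CPM. With DMSO, 1 of 8 genes tested was past 2-fold higher in H3R26C (Angptl4), where 1.82% of 12052 genes were higher and 0.589% lower. With 5-Aza, 2 of 9 were higher in H3R26C (Vegfc and Angptl4), where 4.79% of 12669 genes were higher and 2.64% lower. For 5-Aza against DMSO, 1 of 8 was higher in H3WT (Angpt1; 4.26% of all genes higher and 0.276% lower) and 2 of 9 in H3R26C (Vegfc and Angpt1; 8.04% higher and 3.09% lower). None of the 9 genes was past 2-fold lower in any of the 4 comparisons. Among the 9 genes, the median log2 ratio of those tested was 0.23 between lines with DMSO (8 genes, without Vegfc) and 0.47 with 5-Aza (9 genes). It was 0.42 for 5-Aza in H3WT (8 genes, without Vegfc) and 0.64 for 5-Aza in H3R26C (9 genes). The medians over all genes tested were 0.034, -0.027, 0.035 and -0.032 in the same order. With 1 library per condition no test stands behind these counts. The 9 genes were also chosen with earlier results of these data known, so their distance from all genes is not independent evidence.

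**Figure D2:**
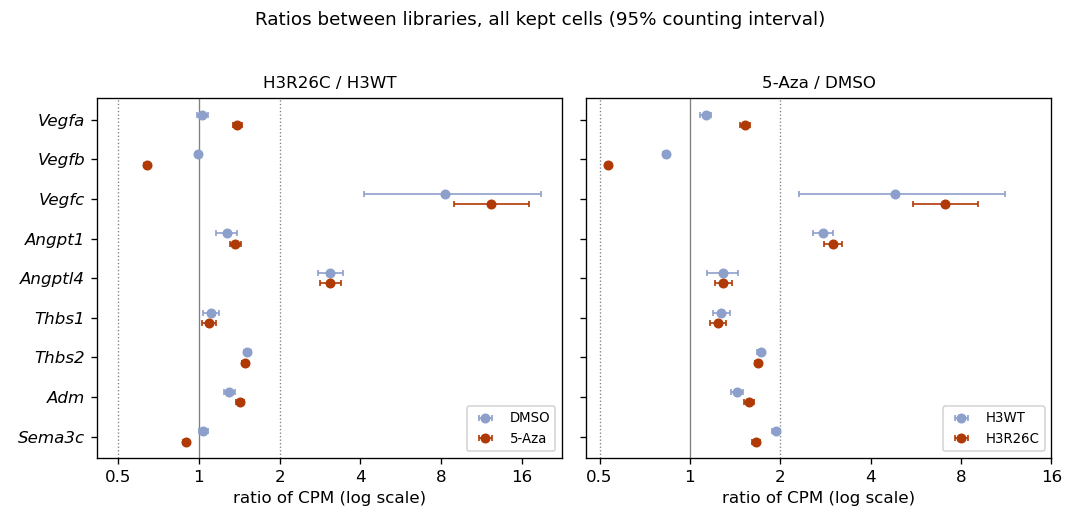
Ratio of CPM (x axis, log scale) for the 9 genes (y axis), on the left H3R26C over H3WT with DMSO and with 5-Aza, on the right 5-Aza over DMSO in H3WT and in H3R26C. Bars are 95% counting intervals and dotted lines mark 2-fold. Angptl4 lies at 3.09 in both contrasts of the lines, and Angpt1 at 2.78 and 2.99 in both contrasts of the treatment.

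The response to 5-Aza over all kept cells differed most in size between the lines for the 3 Vegf ligands. For Vegfc the log2 response came to 0.44 in H3WT cells, whereas H3R26C cells had 1.93, which is 1.48 more. Both H3WT levels of Vegfc (0.104 and 0.498 CPM) lie below the pseudocount of 1 CPM, which shrinks its log2 response there. As plain ratios of CPM the response was 4.81 in H3WT (2.31 to 11.2) and 7.07 in H3R26C (5.53 to 9.14), with overlapping intervals. The log2 response of Vegfb was -0.27 in H3WT and -0.90 in H3R26C, and that of Vegfa was 0.17 and 0.60. In cells of 10000 to 20000 UMIs the ranking changed. There the response of Sema3c was 1.68 in H3WT and 1.03 in H3R26C, against -0.12 and 0.48 for Vegfa. Over all kept cells the response of each of Angptl4, Thbs1 and Thbs2 differed by at most 0.031 between the lines, but not in every set of cells. In cells with both Ly6a and Spp1 the Angptl4 response was 1.62 in H3WT and 0.49 in H3R26C, and that of Thbs1 was 0.83 and -0.014. The Thbs1 value for H3R26C leaned on 1 DMSO cell, which held 130 of the 295 Thbs1 UMIs of these H3R26C DMSO cells. Without the muscle-gated and adipocyte-gated cells the Thbs1 response was 0.26 and -0.17. These differences could not be tested with 1 library per condition.

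The libraries held different numbers of cycling cells, and 28.2% of H3R26C 5-Aza cells had more than 1 UMI over Mki67, Top2a, Cdk1, Ccnb2 and Rrm2, against 10.8% to 13.8% in the other libraries. The same genes were therefore read in the 18106 cells with at most 1 such UMI. There Thbs2 was at 83.4, 133, 146 and 249 CPM and Angpt1 at 10.5, 14.2, 30.4 and 45.9 CPM in H3WT DMSO, H3R26C DMSO, H3WT 5-Aza and H3R26C 5-Aza. Vegfc reached 7.43 CPM in H3R26C 5-Aza against 0.507 in H3WT 5-Aza, a ratio of 14.6 (10.4 to 21.1). Its treatment ratio in H3R26C was 14.4 in these cells (10.2 to 20.8) and 1.60 in the cycling cells (1.11 to 2.37), where H3R26C DMSO was at 2.25 CPM. Sema3c no longer differed between the lines with 5-Aza in the low-cycling cells, at 131 CPM in each and a ratio of 0.997 (0.969 to 1.03). In the cycling cells it did, at 99.6 CPM in H3R26C 5-Aza (96.5 to 103) against 145 CPM in H3WT 5-Aza (138 to 151). Angptl4 kept ratios of 2.96 and 2.97 between the lines in the low-cycling cells.

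In these low-cycling cells the genes past 2-fold were the same as in all kept cells. Between the lines 1 of 8 was higher with DMSO (1.66% of all genes higher and 0.487% lower) and 2 of 9 with 5-Aza (4.78% higher and 2.15% lower). For the treatment 1 of 8 was higher in H3WT (4.49% higher and 0.287% lower) and 2 of 9 in H3R26C (8.66% higher and 2.77% lower). In the cycling cells Thbs2 was lower than in the low-cycling cells of every library, by the widest margin in H3R26C 5-Aza at 135 against 249 CPM. Vegfb went the other way, at 311, 278, 251 and 162 CPM in cycling cells against 271, 275, 226 and 139 CPM in low-cycling cells, although in H3R26C DMSO the intervals of the 2 levels overlap. The cycling cells were set apart on unthinned counts and were deeper in every library. Their median was 28679.5, 24742, 17157 and 17690 UMIs, against 21898, 16088, 12788 and 12106 UMIs in low-cycling cells. The part of depth in these differences was not tested.

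Cells were next set apart by marker genes after each cell had been thinned to 5000 UMIs. Cells with at least 50 UMIs over 12 skeletal muscle genes (Acta1, Mylpf and others) were called muscle-gated and were found only with 5-Aza, 128 in H3WT and 191 in H3R26C. Cells with at least 3 of 8 adipocyte genes (Adipoq, Plin1 and others) were called adipocyte-gated and numbered 20 in H3WT DMSO, 23 in H3R26C DMSO, 71 in H3WT 5-Aza and 25 in H3R26C 5-Aza. The rest were split by a UMI of both Ly6a and Spp1, a progenitor marker and an early mesenchymal lineage marker, which 12.5%, 18.3%, 33.5% and 79.0% of cells had. These gates are ranges and not cell types, since 66 of the 139 adipocyte-gated cells had exactly 3 markers and 211 cells had 25 to 100 muscle UMIs.

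Thbs1 was the gene most bound to the muscle gate. It measured 70.5 CPM in muscle-gated H3WT cells (59.5 to 83.0) and 211 CPM in muscle-gated H3R26C cells (197 to 225), against 10.6 to 27.2 CPM in the Ly6a and Spp1 cells and the remaining cells of all 4 libraries. In H3R26C 5-Aza the muscle-gated cells were 2.51% of cells and held 869 of the 2738 Thbs1 UMIs, or 31.7%. A thinned Thbs1 UMI was found in 38.7% of these cells (31.8% to 46.0%, exact binomial) against 14.8% in H3WT (9.18% to 22.2%).

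A few cells carried much of it, since the 10 cells richest in Thbs1 held 44.5% of the muscle-gated Thbs1 UMIs in H3R26C and 71.7% in H3WT. Without those 10 cells the muscle-gated level was 123 CPM in H3R26C and 23.03 CPM in H3WT. The H3WT 5-Aza cells in none of the gates were at 22.9 CPM with no cell left out, so these levels are not like for like. A thinned Thbs1 UMI was found in 9.07% of those ungated cells (8.18% to 10.03%), against the 14.8% of muscle-gated H3WT cells. Without the muscle-gated and adipocyte-gated cells the log2 ratio of Thbs1 between the lines with 5-Aza turned from 0.12 to -0.29, and that of 5-Aza against DMSO in H3R26C turned from 0.30 to -0.17. The whole-library Thbs1 level in H3R26C 5-Aza therefore depended on these gated cells. The muscle-gated cells were deeper in H3R26C, with a median of 20752 UMIs against 14042 in H3WT.

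Angptl4, Sema3c, Thbs2, Vegfb and Angpt1 were lower in the muscle gate than in the Ly6a and Spp1 cells and the remaining cells of the same library. Angptl4 was at 1.46 and 5.33 CPM in muscle-gated H3WT and H3R26C cells, Sema3c at 45.2 and 29.6 CPM, Thbs2 at 48.2 and 49.5 CPM, Angpt1 at 11.7 and 20.1 CPM and Vegfb at 121 CPM in each. Adm was 70.5 CPM in muscle-gated H3WT cells (59.5 to 83.0), an interval that overlapped that of the remaining cells at 62.4 CPM (60.2 to 64.6), and 69.8 CPM in H3R26C against 93.7 CPM in the remaining cells. Vegfa in the muscle gate was 47.7 CPM in H3WT (38.7 to 58.1) and 85.8 CPM in H3R26C (77.1 to 95.2), so the line difference seen over all cells was present there too. The H3R26C value was above the 62.03 CPM of the Ly6a and Spp1 cells and the 69.4 CPM of the remaining cells of that library.

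The adipocyte gate was marked by Vegfa and Vegfb, and with 5-Aza also by Angptl4 and Angpt1. Vegfa was at 111, 122, 105 and 121 CPM in the adipocyte-gated cells of H3WT DMSO, H3R26C DMSO, H3WT 5-Aza and H3R26C 5-Aza, above every other gate of the same library. Vegfb was at 507, 477, 396 and 394 CPM, also above every other gate of its library. The Vegfa intervals of the 4 libraries overlapped and together ran from 81.4 to 161 CPM, and in H3R26C 5-Aza the interval also overlapped that of the muscle gate. Angptl4 was at 14.1, 28.9, 29.1 and 91.9 CPM (64.0 to 128 in H3R26C 5-Aza, from 35 UMIs in 25 cells). With DMSO its intervals, 5.19 to 30.8 from 6 UMIs in H3WT and 15.8 to 48.5 in H3R26C, overlapped those of the remaining cells. Angpt1 with 5-Aza was at 53.7 CPM in H3WT (40.8 to 69.2) and 70.9 CPM in H3R26C (46.7 to 103), above every other gate of its library, while with DMSO it rested on 2 and 13 UMIs. Thbs1 in this gate was at 8.26 CPM or less, with no UMI in H3R26C 5-Aza, and Sema3c was at 7.07 and 4.13 CPM with DMSO.

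**Figure D3:**
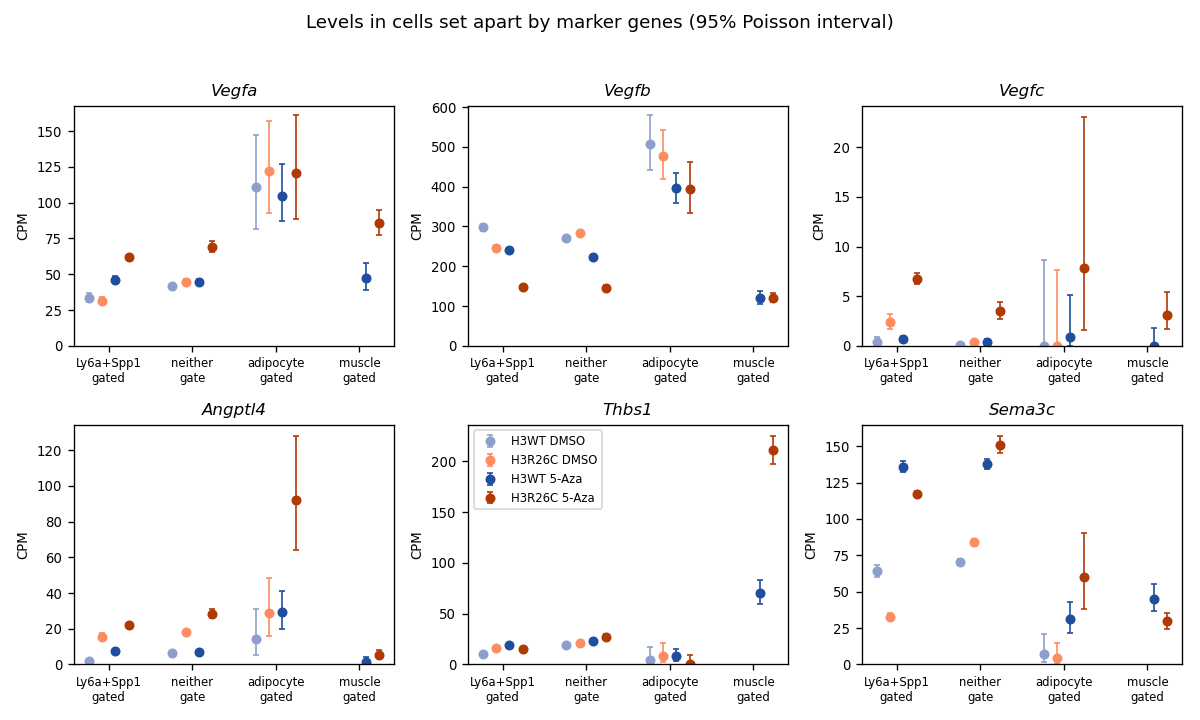
Level (CPM, y axis from 0) of 6 of the genes in cells split by marker genes (x axis), coloured by library, with 95% Poisson intervals. Muscle-gated cells exist only with 5-Aza. Thbs1 stands at 211 CPM in muscle-gated H3R26C cells, and Vegfa and Vegfb are highest in the adipocyte-gated cells of each library.

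The line differences of Angptl4, Vegfb and Vegfc were read on both sides of the Ly6a and Spp1 split, because H3R26C 5-Aza had far more cells on one side. Angptl4 was higher in H3R26C on both sides, at 15.6 against 1.75 CPM with DMSO and 22.3 against 7.49 CPM with 5-Aza in Ly6a and Spp1 cells, and at 18.3 against 6.50 and 28.5 against 7.15 CPM in the remaining cells. Vegfb with 5-Aza was lower in H3R26C on both sides, at 148 against 240.4 CPM in Ly6a and Spp1 cells and at 146 against 224 CPM in the remaining cells. Vegfc in H3R26C 5-Aza was at 6.74 CPM in Ly6a and Spp1 cells (6.21 to 7.31) and 3.47 CPM in the remaining cells (2.68 to 4.42), against 0.648 and 0.417 CPM in H3WT 5-Aza. Sema3c with DMSO split the lines in opposite ways, with Ly6a and Spp1 cells at 64.1 CPM for H3WT against 32.9 for H3R26C and the remaining cells at 70.6 against 83.8 CPM.

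Adm, Angpt1 and Vegfb with DMSO also depended on the side of the split. For Adm the ratio of H3R26C to H3WT was 0.850 (0.746 to 0.967) in Ly6a and Spp1 cells and 1.42 in the remaining cells. The ratio of Angpt1 was 0.995 and 1.34 in the same order, and it was 0.956 in cycling cells and 0.972 in cells of 20000 to 40000 UMIs. Vegfb stood at 0.825 and 1.04, so its ratio near 1 over all kept cells joined a lower and a slightly higher value.

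Depth per cell also differed between libraries, so levels were compared in cells of like depth. In cells of 10000 to 20000 UMIs, Sema3c was at 40.3 CPM in H3WT DMSO (37.5 to 43.2), 62.4 in H3R26C DMSO, 132 in H3WT 5-Aza and 128 in H3R26C 5-Aza. In cells of 20000 to 40000 UMIs it was at 79.0, 89.6, 153 and 103 CPM. The DMSO ratio between lines, close to 1 over all cells, was thus a log2 ratio of 0.62 at 10000 to 20000 UMIs, and 5-Aza against DMSO in H3WT was 1.68 there against 0.94 over all cells. Deeper H3WT DMSO cells thus had more Sema3c per UMI, and that library held the deepest cells.

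Thbs2 was lower in deeper cells in 3 of the 4 libraries. In H3R26C 5-Aza it was at 319 CPM in cells of 5000 to 10000 UMIs, 229 at 10000 to 20000 and 120.2 at 20000 to 40000. The same bands gave 182, 131 and 109 CPM in H3R26C DMSO, 156, 147 and 109 CPM in H3WT 5-Aza and 75.4, 79.4 and 84.5 CPM in H3WT DMSO. The differences between libraries were thus smaller in the deepest of these bands, where H3R26C was 1.30-fold above H3WT with DMSO (1.24 to 1.35) and 1.10-fold with 5-Aza (1.04 to 1.17). Vegfb kept the same order of libraries with 5-Aza below DMSO in each of the 3 bands, at 124, 148 and 159 CPM in H3R26C 5-Aza against 302, 288 and 271 CPM in H3WT DMSO. The part of depth in these differences was not tested.

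**Figure D4:**
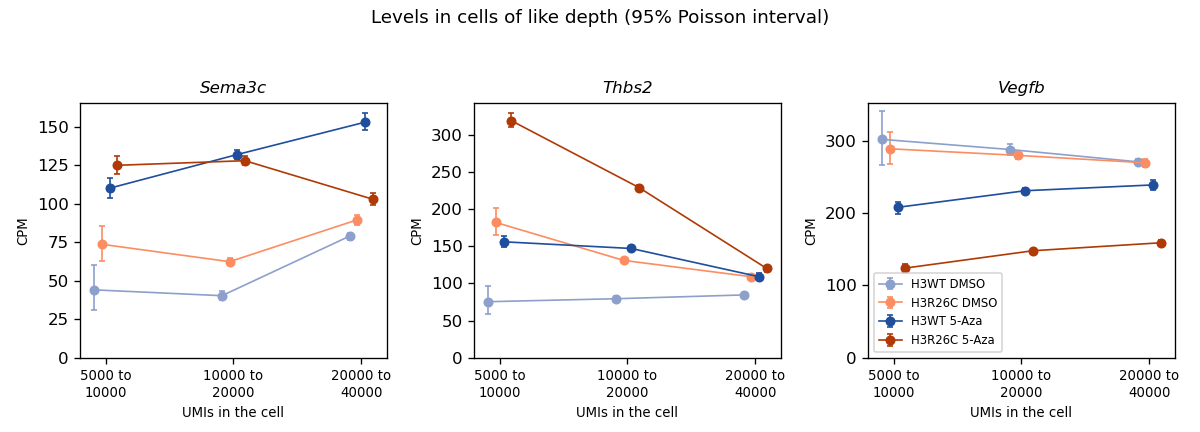
Level (CPM, y axis from 0) of Sema3c, Thbs2 and Vegfb in cells of 5000 to 10000, 10000 to 20000 and 20000 to 40000 UMIs (x axis), coloured by library, with 95% Poisson intervals. Thbs2 in H3R26C 5-Aza runs from 319 to 120.2 CPM with depth, and Vegfb with 5-Aza in H3R26C is the lowest library in every band.

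The share of cells with a UMI was taken after thinning each kept cell to 5000 UMIs. Vegfb was found in 71.6% of H3WT DMSO cells, 71.5% of H3R26C DMSO, 62.7% of H3WT 5-Aza and 48.2% of H3R26C 5-Aza (unthinned 98.0%, 95.9%, 87.5% and 78.3%). Thbs2 was found in 27.2%, 36.6%, 40.3% and 52.4% (unthinned 64.6%, 67.8%, 64.2% and 75.7%), and up to 32 of the 5000 UMIs of a cell were Thbs2 in H3R26C 5-Aza. After thinning, both genes thus differed between libraries in the share of cells with a UMI. At a fixed 5000 UMIs this share depends on the level, so it is no separate finding.

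Angptl4 was found in 2.64%, 8.29%, 3.42% and 9.61% of thinned cells (unthinned 11.5%, 21.9%, 7.31% and 21.8%). Vegfc was found in 0.0270%, 0.127%, 0.150% and 2.90% of thinned cells (unthinned 0.216%, 1.44%, 0.601% and 7.07%). For comparison, the muscle-gated cells of H3R26C 5-Aza had a thinned Angptl4 UMI in 4.71% (2.18% to 8.76%) and a Vegfc UMI in 2.09% (0.573% to 5.28%), and none of the 128 in H3WT had either. No gate is known to lack these genes, so the part of free RNA in such shares was not tested. Within each library the 36 pairwise correlations of the 9 genes across thinned cells lay between -0.074 and 0.11, which in such sparse counts is no finding.

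Of the receptors for these ligands, some were scarce and others were not. Kdr, the main Vegfa receptor, was at 0.0115, 0.0952, 0.202 and 0.686 CPM and Flt4, the Vegfc receptor, at 0.0542 CPM at most, while Cd36 was below 1 CPM in each library. Flt1, the receptor of Vegfa and Vegfb, was at 4.69, 7.49, 9.43 and 32.8 CPM, so it was highest in the library in which Vegfb was lowest. The co-receptor Nrp1 was at 88.3, 74.7, 115 and 65.5 CPM and Nrp2 at 71.6, 60.9, 85.8 and 116 CPM. Of the 7 genes of the VEGF and Tie receptor list 4 passed the 1 CPM minimum in each comparison, and 1 was higher and 1 lower between the lines with 5-Aza (4.79% and 2.64% of all genes) and for 5-Aza in H3R26C (8.04% and 3.09%), against 0 in the other 2 comparisons. Flt1 was past 2-fold higher and Tek past 2-fold lower (1.24 CPM) in H3R26C 5-Aza against both other libraries it was compared with.

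The adrenomedullin receptor and its partners varied on their own. Calcrl, the receptor subunit, was at 14.8, 31.0, 14.1 and 16.6 CPM, and its partner Ramp2 was at 6.92, 27.9, 66.5 and 111 CPM. Cd47, the receptor of Thbs1 and Thbs2, was at 102, 134, 129 and 221 CPM. Of 9 such receptors tested, 2 were past 2-fold higher in H3R26C with DMSO (1.82% of all genes) and 0 with 5-Aza (4.79%). For the treatment 1 was higher in H3WT (4.26% of all genes) and 1 in H3R26C (8.04%). Plxna2, a semaphorin receptor subunit, was lower with 5-Aza in H3R26C, at 37.6 against 95.9 CPM.

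Further angiogenic factors were divided. Of 16 tested, 2 were past 2-fold higher and 0 lower in H3R26C with DMSO, where the shares over all genes were 1.82% and 0.589%, and 2 were higher and 1 lower with 5-Aza, where they were 4.79% and 2.64%. Hgf, the ligand of Met, was at 45.3 CPM in H3R26C 5-Aza against 5.49 in H3WT 5-Aza. Angptl1 went the opposite way, at 16.2 against 63.2 CPM, and Slit2, a guidance ligand of Robo receptors, was at 42.9 against 20.97 CPM. Cxcl12, a chemokine, was higher in H3R26C with DMSO at 773 against 519 CPM. Further inhibitors gave 1 higher and 1 lower of 13 between the lines with 5-Aza (4.79% and 2.64% of all genes), namely Sema3a at 59.5 against 20.3 CPM and Sema3b at 24.1 against 60.2 CPM, so the class 3 semaphorins next to Sema3c lay on both sides.

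Of 20 glycolytic and other hypoxia-induced genes, none of them among the 9, 11 were past 2-fold higher and 1 lower with 5-Aza in H3R26C (median log2 ratio 1.04; 8.04% and 3.09% of all genes), and 1 was higher in H3WT (median 0.19, and 4.26% of all genes higher). Between the lines with 5-Aza 6 of 20 were higher (median 0.58, and 4.79% of all genes), and with DMSO 0 of 19 were higher and 1 lower (median -0.13, and 1.82% and 0.589% of all genes). Pgk1, a glycolytic kinase, was at 918 against 324 CPM and Car9, a carbonic anhydrase induced in hypoxia, at 131 against 2.57 CPM for 5-Aza against DMSO in H3R26C. Vegfa and Adm, also known targets of hypoxia, were highest in the same library, and whether the list and these 2 genes share a cause was not tested. The fatty acid list, read because Angptl4 belongs to that response, had 2 of 10 genes past 2-fold higher in H3R26C with DMSO (1.82% of all genes), among them Fabp4 at 56.4 against 18.04 CPM, and 0 of 10 with 5-Aza (4.79%). Fabp4 is also one of the 8 adipocyte genes of the gate. Of these, 7 were higher in H3R26C with DMSO, such as Cfd at 32.9 against 5.99 CPM and Adipoq at 16.5 against 8.20 CPM, while Plin4 was lower at 75.8 against 113 CPM. With 5-Aza all 8 were lower in H3R26C, such as Fabp4 at 89.7 against 132 CPM and Cfd at 6.64 against 35.2 CPM. The part of the adipocyte genes in the list's count was not tested. Of 14 immediate early genes, which dissociation of cells can induce, all were lower in H3R26C with both treatments, 3 past 2-fold with DMSO (0.589% of all genes lower) and 11 with 5-Aza (2.64%), and the part of this in the 9 genes was not tested.

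The study's own list of blood vessel morphogenesis genes was taken as the vascular set against which the 9 genes are read. It holds 133 genes that the study selected for a difference between H3R26C and H3WT in bulk RNA of these lines, so its behaviour between the lines is not independent evidence, and of the 9 genes Angpt1 and Thbs1 are on it. With DMSO, 10 of 121 list genes tested were past 2-fold higher in H3R26C and 2 lower (8.26% and 1.65%, against 1.82% and 0.589% of all genes), with a median log2 ratio of 0.092 against 0.034 over all genes. With 5-Aza, 19 of 125 were higher and 13 lower (15.2% and 10.4%, against 4.79% and 2.64%), with a median of 0.12. The list genes thus lay past 2-fold in both directions, and 56.2% and 56.0% of them were above 0, against 56.2% and 47.0% of all genes tested. The list was not split by the direction of its genes in bulk RNA. The study's own single-cell statement on vascular terms concerned specific clusters of cells, which were not rebuilt here, so these whole-library counts do not address it. Examples are Nfatc4, a transcription factor, at 50.6 against 16.96 CPM and Thy1 at 37.6 against 110 CPM with DMSO, and Cav1, the caveolar coat protein, at 138 against 22.1 CPM and Hmga2 at 71.9 against 9.37 CPM with 5-Aza. Angpt1 and Thbs1 themselves were at most 1.37-fold apart between the lines. The study's endothelial cell migration list of 50 genes was likewise selected for a difference between the lines in bulk RNA. With DMSO, 1 of 45 tested was higher and 1 lower (2.22% each, against 1.82% and 0.589% of all genes). With 5-Aza, 7 of 47 were higher and 5 lower (14.9% and 10.6%, against 4.79% and 2.64%).

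**Figure D5:**
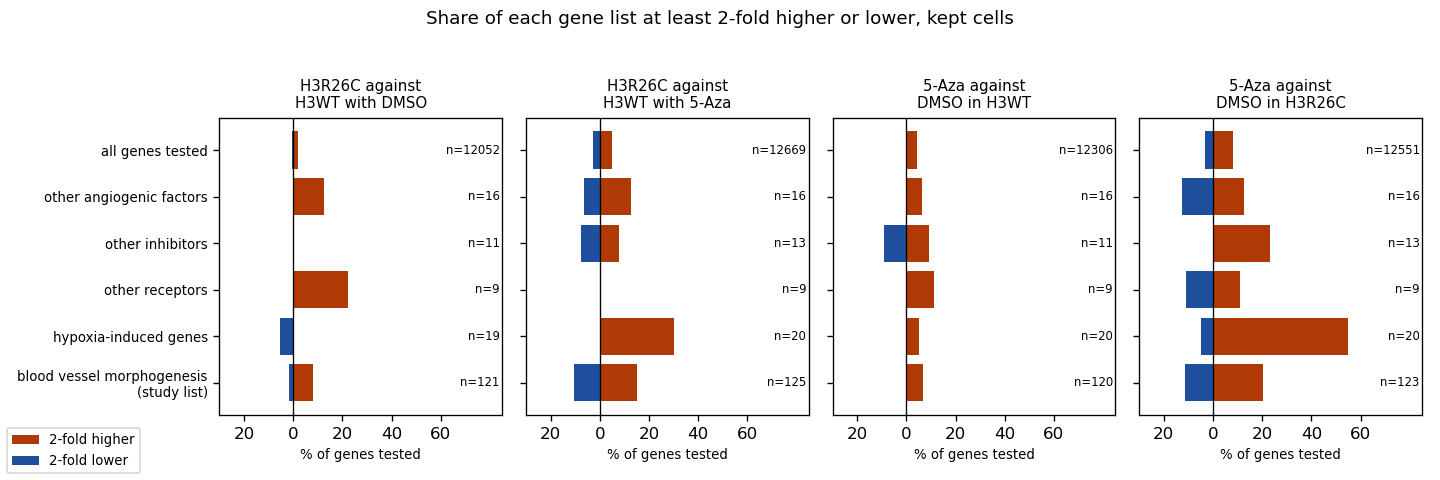
Percent of the genes tested in each list (y axis) that were at least 2-fold higher (right of 0) or lower (left of 0) in the 4 comparisons, with the number tested at the right edge. Of the hypoxia-induced genes, 11 of 20 were higher with 5-Aza in H3R26C, and the blood vessel list had genes on both sides.

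For the 5 members whose log2(CPM + 1) spanned at least 1 over the 4 libraries, the 2 genes closest in profile were found by Euclidean distance of centred values among genes with at least 10 CPM on average. Vegfc was closest to Kcnn4 (distance 0.16) and Gchfr (0.26), of which Kcnn4 was at 3.44, 6.20, 5.60 and 26.1 CPM. Angpt1 was closest to Olfml2b (0.18) and Tpm2 (0.23), and Angptl4 to Fblim1 (0.15) and Nudt14 (0.21). Thbs2 was closest to Cdkn3 (0.083) and the matrix gene Tnc (0.097), the latter at 14.9, 22.5, 24.6 and 40.6 CPM. Adm was closest to Avpi1 (0.061) and Ankrd9 (0.068). Each distance rests on 4 libraries, so the neighbours are a description of these values only.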

How the data were processed

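The authors made UMI counts per gene and cell with Cell Ranger (matrix header 6.1.0, Cell Ranger 6 in the submitters' processing notes) on the mouse build mm10 and deposited them as whole-number counts, not normalized. The deposited barcodes had not passed the study's cell filter, which was applied here (at least 5000 UMIs, at least 1500 genes and at most 20% mitochondrial UMIs). Counts were summed per library, since each condition has 1 library and cells are not replicates, and given as CPM. Levels carry exact Poisson 95% intervals, ratios carry exact conditional binomial intervals, and log2 ratios use a pseudocount of 1 CPM. No test was run and no p-value is given. No doublets were removed, and an alternative left out the 5% of cells with the most UMIs. Cells were thinned to 5000 UMIs for shares and gates. The computation of ratios was tested on simulated data. Python 3.11.15, numpy 2.4.6, scipy 1.17.1 and pandas 2.3.3 were used.

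The 9 genes and the gene lists were chosen with earlier results of these data known. From the lists, those that averaged 20 CPM or more and had the largest log2 ratio are named, at most 3 per list and comparison, and receptors and markers are named for their role. Alternatives changed the cell filter, the cells used, the scaling and the pseudocount. The expression minimum was changed as well, for the counts of genes past 2-fold. Gene positions are from GENCODE M21 and promoter windows from RefSeq, where 6 of the 9 genes matched. The study's other data types were not used here.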

Additional observations from a re-analysis of the deposited data

How the results depend on the processing

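No paired analysis was possible because every combination of line and treatment is a single library. Over 12 alternatives, 11 of them planned and 1 (without barcodes found in another library) chosen after seeing the data, 71 of 72 recomputed values of the 6 gene ratios past 2-fold stayed past it in the same direction. The expression minimum does not change a ratio and is not among these 12. With a minimum of 10 CPM, which removes Vegfc, the count of genes past 2-fold higher in H3R26C against H3WT with 5-Aza went from 2 to 1, and that for 5-Aza in H3R26C from 2 to 1. A pseudocount of 5 CPM also gave 1 for 5-Aza in H3R26C, since Vegfc is close to that pseudocount. Under it the log2 ratio of Vegfc between the lines with 5-Aza was 1.01, against 2.23 with a pseudocount of 1 CPM. For 5-Aza in H3WT the count went from 1 to 2, with Sema3c added, in cells of 10000 to 20000 UMIs and likewise with the mean of per-cell CPM, where it was also 2. In the same depth band Sema3c was past 2-fold for 5-Aza in H3R26C as well (log2 ratio 1.03 against 0.72), which made that count 3. Another 9 values under 2-fold changed sign, among them the 2 ratios of Thbs1 without gated cells. In cells of 10000 to 20000 UMIs the log2 ratio of Vegfa was -0.13 between the lines with DMSO and -0.12 for 5-Aza in H3WT, against 0.042 and 0.17 over all kept cells, and that of Thbs1 between the lines with DMSO was -0.012 against 0.15. The cause of these shifts was not tested.

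Each condition is 1 library of 1 transduced line, so line, treatment and library cannot be told apart from the preparation of that library. Vegfc in H3WT DMSO rests on 9 UMIs, and adipocyte-gated values rest on 20 to 71 cells. Scaling by the median of ratios moved the median of all genes by less than 0.1 on the log2 scale in each comparison.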
